A study of Bos taurus with 14 samples.

Results

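The miRNAs described here are bta-miR-451, bta-miR-144 and bta-miR-486, which are known as miRNAs of red blood cells, in white blood cells from the peripheral blood (PWBC) of beef heifers. They were chosen by name, as 3 of the 1030 mature miRNA names in the deposited count table, and 2 of the 3 were among the 341 miRNAs that could be tested. Blood was taken at weaning from Angus-Simmental crossbred heifers, and small RNA was sequenced from the PWBC of each animal as 1 library. After breeding, 7 of these heifers had become pregnant to artificial insemination (fertile, FH) and 7 had not, nor to the bulls that followed (subfertile, SFH). The blood predates the breeding, and the groups were selected for comparable ages and weights. The total count over the 341 miRNAs was 1754356 to 5466768 per heifer.

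bta-miR-451 is made from a short hairpin that is cut by the Argonaute protein AGO2 and not by Dicer. In vertebrates it shares a primary transcript with miR-144, which is switched on by the erythroid transcription factor GATA1 as red cells mature. miR-486 comes from within the ankyrin gene *ANK1*, whose protein anchors the membrane skeleton of red cells. Mature red cells have no nucleus but still hold large amounts of these miRNAs, so that they are commonly read as a sign of red cells or haemolysis in a blood preparation. In the RefSeq annotation of the cattle assembly ARS-UCD2.0, the bta-miR-451 precursor gene lies between *ERAL1* and the bta-miR-144 precursor gene, and the latter is followed by *FLOT2*. The bta-miR-486 precursor gene overlaps *ANK1* in the same annotation. The files are based on an earlier assembly, so no coordinates are given.

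The 3 miRNAs did not have the same standing in these cells. bta-miR-451 was present in all 14 heifers with 83879 counts in all and a mean of 1905 CPM (counts scaled to the library's total over the 341 miRNAs), which ranked it 58th of the 341 miRNAs. bta-miR-486 was also present in every heifer, with 48893 counts in all and a mean of 1082 CPM, and ranked 70th. bta-miR-144 was listed at 0 in all 14 heifers, although its gene is the neighbour of the bta-miR-451 gene. With no read seen, up to 3 reads per library remain possible, or 0.549 to 1.71 CPM depending on the heifer. Set against this limit of 3 counts per library, bta-miR-451 had at least 499.7-fold more reads than bta-miR-144 in the heifer with the fewest bta-miR-451 reads and at least 9323-fold more in the heifer with the most. No count in any heifer was also found for 416 of the 1030 names (40.4%), so the 0 of bta-miR-144 was shared with many other entries. The folds compare counted reads, and a low level of bta-miR-144 and an entry that the counting did not reach cannot be told apart here. These limits and the intervals given for other values cover counting error only, since reads amplified by PCR are not independent molecules. Each of the 3 names had 1 entry in the count table, so no choice between precursors was needed.

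In FH, bta-miR-451 was lowest in heifer 25 (815 CPM), had a median of 1261 CPM and was highest in heifer 20 (2179.8 CPM). In SFH, it was lowest in heifer 23 (949 CPM), had a median of 1362 CPM and was highest in heifer 30 (7068 CPM). The lower part of both groups covered the same range, while SFH heifers 30, 17 and 28 lay above every FH heifer. Heifer 30 had 27970 reads of bta-miR-451 (95% exact binomial interval 6985 to 7151 CPM), and the next heifer, SFH heifer 17, had 2818 CPM. In heifer 30 bta-miR-451 was the 29th most abundant miRNA, compared to a place between the 51st and the 78th in the other heifers.

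For bta-miR-486, the lowest FH value was 442 CPM in heifer 22, the median was 731 CPM and the highest value was 1963 CPM in heifer 25. In SFH the lowest value was 508 CPM in heifer 26, the median was 937 CPM and the highest value was 2169 CPM in heifer 30. The ranges of the groups overlapped almost fully, and heifer 30 was the only SFH heifer above all FH heifers. Across the 14 heifers the highest value was 8.67 times the lowest for bta-miR-451 and 4.90 times the lowest for bta-miR-486.

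When the heifers were ordered by CPM, most neighbours differed by more than counting error. The 95% exact binomial intervals overlapped in 3 of the 13 neighbouring pairs for bta-miR-451 and in 5 of the 13 for bta-miR-486. Examples are SFH heifers 26 and 23 for bta-miR-451 (954 and 949 CPM) and FH heifer 29 and SFH heifer 32 for bta-miR-486 (731 and 721 CPM).

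**Figure D1:**
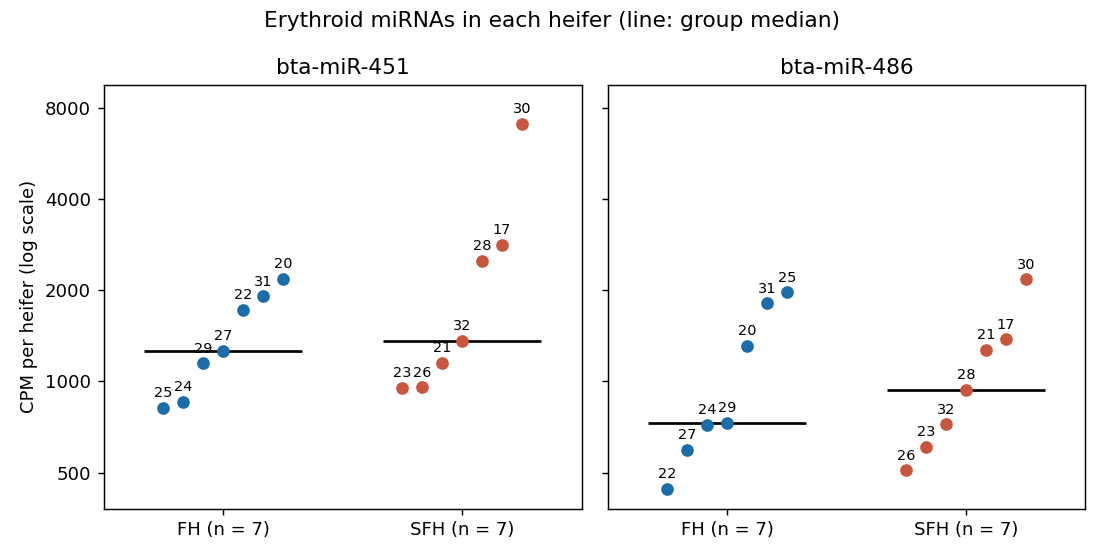
CPM of bta-miR-451 (left) and bta-miR-486 (right) on a log axis, with 1 labelled point per heifer and a line at the median of each group. The FH and SFH points share most of their range in both panels, and SFH heifer 30 stands at 7068 CPM in the left panel and 2169 CPM in the right panel.

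The question of the comparison was whether the level at weaning differed between heifers that later proved fertile or subfertile. FH heifers averaged 1412 ± 531 CPM of bta-miR-451 and SFH heifers 2398 ± 2191 CPM (SD over 7 heifers each). The log2 fold change of SFH relative to FH was 0.72 with a standard error of 0.39 in edgeR's quasi-likelihood test, and the adjusted p-value over the 341 miRNAs was 0.890 (unadjusted 0.0794). For bta-miR-486 the averages were nearly equal, at 1081 ± 613 CPM in FH beside 1084 ± 579 CPM in SFH (SD over 7 heifers each). Its log2 fold change was −0.05 with a standard error of 0.35, and the adjusted p-value of the same test was 0.977 (unadjusted 0.891). The study called a miRNA on an unadjusted p up to 0.05 together with a log2 fold change of 0.5 or more in size. Neither member met these thresholds (0 of 2 in edgeR), and 0 of 2 had an unadjusted p up to 0.05 in edgeR or in DESeq2, where the p was 0.0690 for bta-miR-451 and 0.810 for bta-miR-486. Of all 341 miRNAs, 13 (3.81%) met them in edgeR, with 5 higher (1.47%) and 8 lower (2.35%) in SFH. An unadjusted p up to 0.05 was reached by 20 of the 341 (5.87%) in edgeR and by 21 (6.16%) in the exact permutation test, and an adjusted one by 0 in edgeR and 2 (0.587%) in DESeq2. The median log2 fold change over the 341 was 0.06. These p-values do not show that the members were alike in FH and SFH.

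The difference in bta-miR-451 rested on 1 heifer. Without SFH heifer 30 its log2 fold change was 0.13 with a standard error of 0.29, and the SFH mean fell to 1619.7 ± 821 CPM (SD, n = 6). With any other heifer left out, the log2 fold change was between 0.63 and 0.86. It passed the study's thresholds in edgeR without SFH heifer 21 (unadjusted p = 0.0448), 23 (0.0362) or 26 (0.0391), with adjusted p-values of 0.678 to 0.999 over the 14 fits. On the scale of log2(TMM-normalized CPM + 0.5), which gives less weight to a single high value, the two-sided exact permutation test gave a difference of 0.40 (p = 0.425, n = 7 per group). Without heifer 30 that difference was 0.07 (exact permutation p = 0.843). For bta-miR-486 the same test gave a difference of −0.03 (exact permutation p = 0.948, n = 7 per group). Its log2 fold change in edgeR lay between −0.33 without SFH heifer 30 and 0.17 without FH heifer 25, the heifers with its highest values.

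**Figure D2:**
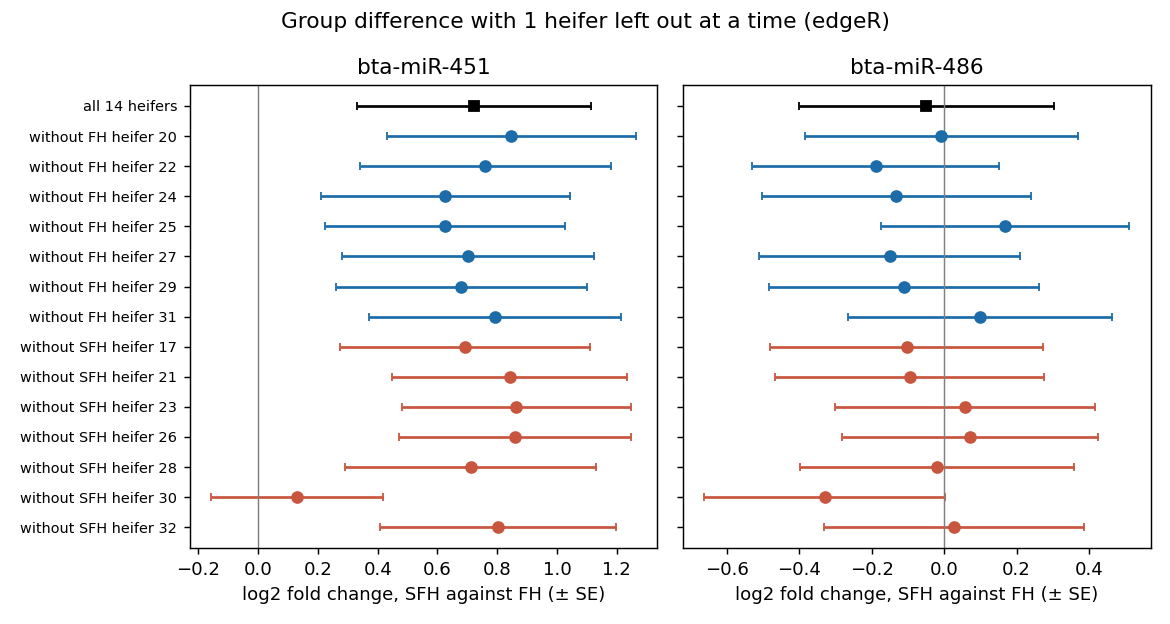
Log2 fold change of SFH relative to FH in edgeR for bta-miR-451 (left) and bta-miR-486 (right), with all 14 heifers (black square) and with 1 heifer left out at a time (blue, an FH heifer; red, an SFH heifer). Bars are standard errors, and bta-miR-451 drops from 0.72 to 0.13 only without SFH heifer 30.

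Both members varied more between heifers of a group than most of the miRNAs with a mean of at least 100 CPM, whatever their abundance above it. The SD of log2 values within groups was 0.85 for bta-miR-451 and 0.79 for bta-miR-486, compared to a median of 0.45 over these 154 miRNAs. This placed bta-miR-451 14th and bta-miR-486 18th of the 154 by spread. Without SFH heifer 30 the SD was 0.60 for bta-miR-451 (34th) and 0.72 for bta-miR-486 (20th). Between log2 total count and bta-miR-451, r was 0.07 (permutation p = 0.827, also after adjustment over the 2 members) and rho was 0.0022 (permutation p = 1) over the 14 heifers. It was −0.16 within FH, 0.42 within SFH and −0.05 without the heifers most distant from the median of bta-miR-451 (SFH heifers 30 and 17). For bta-miR-486 the same relation had r = 0.35 (permutation p = 0.224, adjusted 0.448) and rho = 0.35 (permutation p = 0.228), with r = 0.36 within FH, 0.36 within SFH and 0.08 without its most distant heifers (SFH 30 and FH 25).

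bta-miR-451 and bta-miR-486 together took a small share of the reads on miRNAs. In FH this share was 0.157% in heifer 24 at the lowest, 0.217% at the median and 0.371% in heifer 31 at the highest. In SFH it was 0.146% in heifer 26, 0.242% at the median and 0.924% in heifer 30 (95% exact binomial interval 0.914% to 0.933%). Every other SFH heifer had at most 0.419%. A ratio of miR-451 to miR-23a, a miRNA that red cells hold little of, is in common use as a sign of haemolysis in plasma. White cells hold much bta-miR-23a, so here the ratio relates bta-miR-451 to a miRNA that is abundant in the labelled cells. For every 1000 reads of bta-miR-23a there were 29.0 to 80.7 reads of bta-miR-451 in FH (median 60.3). In SFH there were 30.1 to 96.0 in 6 heifers and 273.5 in heifer 30 (median 43.7 over all 7). The SFH median was therefore below the FH median, although the SFH mean of 87.8 was above the FH mean of 55.5. In bulk RNA, more red cells and more of these miRNAs per red cell cannot be told apart.

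The balance of the members also differed between heifers. bta-miR-451 had more reads than bta-miR-486 in 12 of the 14 heifers, the exceptions being FH heifer 25 and SFH heifer 21. The ratio of bta-miR-451 to bta-miR-486 reads was 0.415 in FH heifer 25 and 3.90 in FH heifer 22, with an FH median of 1.57. In SFH the ratio was 0.904 in heifer 21 and 3.26 in heifer 30, with a median of 1.89. The widest range of the ratio was thus found within FH.

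Over all 14 heifers, bta-miR-451 and bta-miR-486 had Pearson's r = 0.49 (permutation p = 0.0729) and Spearman's rho = 0.38 (permutation p = 0.174). Adjusted over the 679 pairs of a member with another tested miRNA, these p-values were 0.590 and 0.829. The r was 0.24 without SFH heifer 30 (permutation p = 0.419) and 0.15 without SFH heifers 30 and 17, which lie most distant from the median of bta-miR-451, so that the relation rested on those heifers. Within the 7 FH heifers r was −0.04 (p = 0.933 by exact permutation) and rho −0.04 (p = 0.963). Within the 7 SFH heifers r was 0.85 (p = 0.0157 by exact permutation, adjusted 0.425) and rho 0.86 (p = 0.0238). Without heifer 30 the SFH r was 0.67 (p = 0.178 by exact permutation) and rho 0.77 (p = 0.103), n = 6. The difference in r between the groups, 0.89, was not past the spread obtained by exchanging the group labels (exact two-sided permutation test, p = 0.159).

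**Figure D3:**
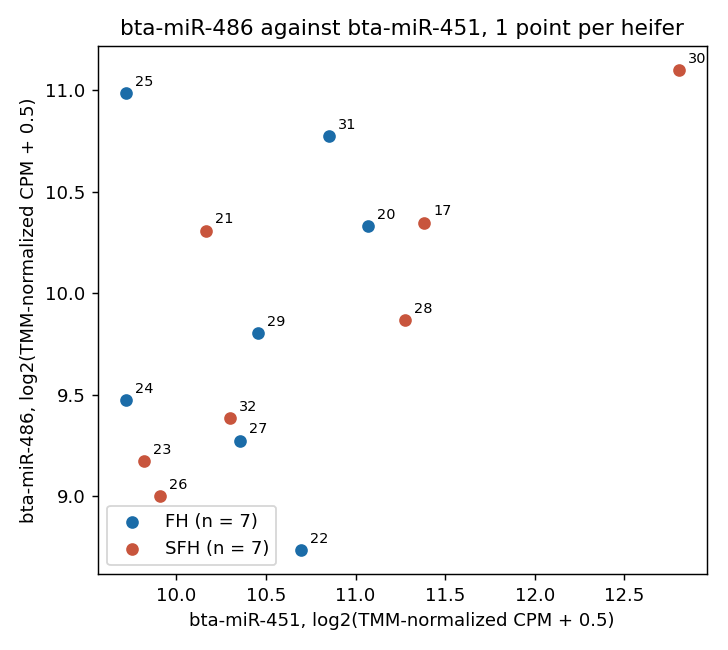
bta-miR-486 against bta-miR-451 in each heifer, both as log2(TMM-normalized CPM + 0.5), with FH in blue and SFH in red. The red points rise together (r = 0.85, n = 7) and the blue points do not (r = −0.04, n = 7), with FH heifers 25 and 22 at opposite corners and SFH heifer 30 at the upper right.

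Each of the remaining 339 tested miRNAs was fitted in edgeR on the log2 level of bta-miR-451 with the group in the model. This asked which other miRNAs followed bta-miR-451. The slope is the log2 change of a miRNA for each doubling of bta-miR-451. No slope passed an adjusted p-value of 0.05 in edgeR (0 of 339, smallest 0.123), while 32 of 339 (9.44%) reached an unadjusted 0.05, 13 with a positive (3.83%) and 19 with a negative slope (5.6%). In DESeq2, 11 of 339 (3.24%) reached an adjusted 0.05 and 40 (11.8%) an unadjusted 0.05. The median slope was −0.06. Of the 32 miRNAs, all 32 had a slope of the same sign without SFH heifer 30, and 14 of them kept an unadjusted p under that threshold. Slopes for FH and SFH separately differed in 0 of 339 miRNAs after adjustment and in 7 (2.06%) before adjustment in edgeR. The same fit on the log2 level of bta-miR-486 gave 0 of 339 at an adjusted 0.05 and 14 at an unadjusted 0.05 in edgeR. Over all 14 heifers the larger number of unadjusted slopes was thus seen for bta-miR-451. Without SFH heifer 30 its number fell to 24 of 339.

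Of the 10 slopes named here, 8 had an adjusted p under 0.05 in DESeq2 and 0 in edgeR. The exceptions in DESeq2 were bta-miR-99a-5p (0.0997) and bta-miR-142-5p (0.146). Over all 339 miRNAs, 11 (3.24%) reached an adjusted 0.05 in DESeq2. The 10 were picked by their p in edgeR on the same heifers, so their DESeq2 results are no separate support. The positive slopes with the smallest p-values belonged to bta-miR-532, bta-miR-140, bta-miR-99a-5p, bta-miR-30b-5p and bta-miR-142-5p. bta-miR-532, which lies in a miRNA cluster of the X chromosome in mammals, had a slope of 0.40 with a standard error of 0.11 in edgeR (adjusted p = 0.220, and 0.0344 in DESeq2). It ranged from 354 to 1267 CPM, with its highest value in SFH heifer 30, without which the slope was 0.35 (unadjusted p = 0.0604). bta-miR-140, known from cartilage and encoded within *WWP2*, had a slope of 0.43 (standard error 0.13, adjusted p = 0.220 in edgeR and 0.0382 in DESeq2). Its slope was between 0.36 and 0.51 in the fits without 1 heifer each, with 0.51 without heifer 30. bta-miR-30b-5p had a slope of 0.56 (standard error 0.17, adjusted p = 0.220 in edgeR and 0.0230 in DESeq2). Its slope was between 0.50 and 0.81 in the fits without 1 heifer each, with 0.81 without heifer 30. In that heifer bta-miR-30b-5p stood only 3rd of the 14 heifers at 5327 CPM. bta-miR-142-5p is made throughout the blood cell lineages and had a slope of 0.36 (standard error 0.14) with an adjusted p of 0.494 in edgeR.

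The negative slopes with the smallest p-values belonged to bta-miR-2478, bta-miR-1949, bta-miR-6529a, bta-miR-423-5p and bta-miR-2285bt. bta-miR-2478 had a slope of −0.40 with a standard error of 0.09 in edgeR (adjusted p = 0.123, and 0.00152 in DESeq2). It was lowest in SFH heifer 30 (1015 CPM against up to 3929.9 CPM elsewhere), and its slope stayed between −0.43 and −0.36 in the fits without 1 heifer each. bta-miR-1949 had a slope of −0.90 (standard error 0.22; adjusted p = 0.127 in edgeR and 0.00152 in DESeq2). It was also lowest in heifer 30 (31.8 CPM), and the slope was −0.96 without that heifer. bta-miR-423-5p had a slope of −0.61 (adjusted p = 0.220 in edgeR and 0.0261 in DESeq2). Its slope was between −0.94 and −0.49 in the fits without 1 heifer each, with −0.94 without heifer 30. The slope of bta-miR-2285bt, −2.05 (adjusted p = 0.494 in edgeR and 0.0173 in DESeq2), came from a miRNA of at most 39.9 CPM that had no count in 2 heifers, and was −1.53 without heifer 30 (unadjusted p = 0.0792). bta-miR-6529a, with a slope of −0.59 (adjusted p = 0.220 in edgeR and 0.0173 in DESeq2), was likewise lowest in heifer 30 (119.5 CPM), and had −0.47 without it (unadjusted p = 0.0673).

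**Figure D4:**
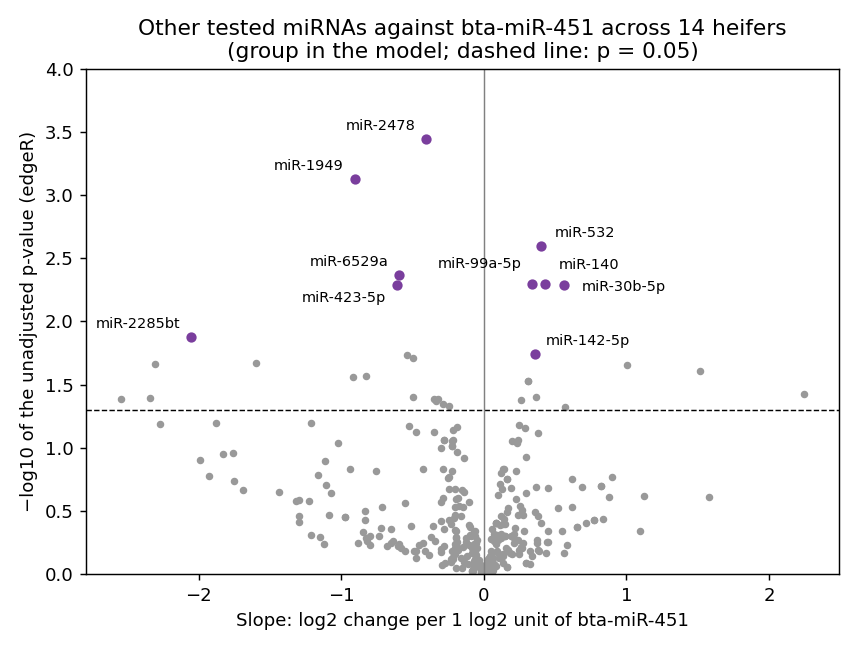
Slope of each of 339 miRNAs on bta-miR-451 in edgeR with the group in the model, against −log10 of its unadjusted p-value. Each point is a miRNA, the purple points mark the named miRNAs of each direction, and 32 points lie above the dashed line at the unadjusted threshold of 0.05.

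The miRNAs most like each member were also taken by Pearson's r of the log2 values over the 14 heifers. For bta-miR-451 the 5 highest r were 0.76 for bta-miR-532, 0.75 for bta-miR-99a-5p, 0.70 for bta-miR-140, 0.65 for bta-miR-30b-5p and 0.65 for bta-miR-142-5p, the same 5 as in the slope fit. Without the 2 most distant heifers these r were 0.50 to 0.69. bta-miR-99a-5p had the highest r of the 5 within FH, at 0.83 (exact permutation p = 0.0248, adjusted 0.695, n = 7). In SFH its r was 0.74 (exact permutation p = 0.0768, adjusted 0.558, n = 7). The r of bta-miR-532 was 0.13 in FH and 0.92 in SFH. The lowest r were −0.79 for bta-miR-2285bt, −0.77 for bta-miR-2448-3p and −0.75 for bta-miR-1949. For bta-miR-1949 r was −0.80 in FH, −0.82 in SFH and −0.70 without the 2 most distant heifers, and rho was −0.78 over all 14 (permutation p = 0.00149, adjusted 0.282). The miRNAs named here were picked by r over these same heifers, so their r within FH or SFH is not an independent test.

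The 5 miRNAs most like bta-miR-486 were others. Their r were 0.71 for bta-miR-139, 0.70 for bta-miR-10174-5p and for bta-miR-23b-5p, 0.67 for bta-miR-193a-5p and 0.66 for bta-miR-6775. bta-miR-10174-5p and bta-miR-23b-5p had equal counts in all 14 heifers, so they cannot be told apart and count as 1 measurement. They and bta-miR-6775 had means of 6.45 and 10.6 CPM, where r says little. bta-miR-139, with a mean of 454 CPM, had r = 0.92 in FH and 0.33 in SFH, and r = 0.75 without the 2 most distant heifers. The lowest r were −0.66 for bta-miR-146a, a feedback inhibitor of inflammatory signalling, −0.63 for bta-miR-29b and −0.62 for bta-miR-1434-5p. For bta-miR-146a r was −0.77 in FH (exact permutation p = 0.0308, adjusted 0.695, n = 7). It was −0.53 in SFH (exact permutation p = 0.210, adjusted 0.708, n = 7). bta-miR-146a was picked by its low r over these same heifers, so an r below 0 within both groups is no separate support. In the family of 679 pairs, 0 had an adjusted permutation p of at most 0.05 (smallest 0.334), and 54 (7.95%) had an unadjusted p of at most 0.05. By member, these were 35 of 340 (10.3%) for bta-miR-451 and 19 of 340 (5.59%) for bta-miR-486, with the pair of the members included in both. Without SFH heifer 30 the same counts were 25 (7.35%) for bta-miR-451 and 27 (7.94%) for bta-miR-486. They were 15 (4.41%) and 28 (8.24%) within FH, and 35 (10.3%) and 32 (9.41%) within SFH, in the same order. All pairs share the libraries and the normalization, and the correlations with low counts are descriptions only.

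The relation to bta-miR-451 was also examined for other miRNAs that are abundant in red cells. Of a list of 13 such miRNAs, 10 could be tested, and 8 of the 10 had a slope above 0, compared to 152 of all 339 (44.8%). None passed an unadjusted p of 0.05 in edgeR (0 of 10 also after adjustment), and the median slope of the 10 was 0.08 beside −0.06 over all 339. bta-miR-363, of the cluster next to the miR-106a genes, had a slope of 0.30 (standard error 0.18) and bta-miR-185 of 0.29 (standard error 0.15). bta-miR-16a and bta-miR-16b, members of the miR-15/16 family that limits cell division, had slopes of 0.07 (standard error 0.11) and 0.13 (standard error 0.10). bta-miR-92a, the most abundant of the list, had a slope of −0.06 (standard error 0.09). Without SFH heifer 30, 3 of the 10 slopes were above 0, beside 158 of all 339, and bta-miR-92a had a slope of −0.32 (standard error 0.12, unadjusted p = 0.0196). The 3 other members of the list, bta-miR-96, bta-miR-182 and bta-miR-183, were counted 4, 138 and 68 times over all heifers and were not tested. Between the groups 0 of the 10 passed the study's thresholds in edgeR, with log2 fold changes of −0.25 to 0.25.

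The samples are labelled as white cells, and the miRNAs listed for lymphocytes and myeloid cells had far larger sums than the 3 erythroid ones. Not each of them was more abundant. The means of bta-miR-146a (1092 CPM) and bta-miR-142-3p (148 CPM) were below that of bta-miR-451 (1905 CPM), and the other means of these 2 lists were above it. The lymphocyte list of 5 miRNAs summed to 73413 to 128932 CPM in FH and 66177 to 144193 CPM in SFH. The myeloid list of 8 miRNAs summed to 85045 to 137441 CPM in FH and 115858 to 157101 CPM in SFH. The 3 erythroid miRNAs summed to 1574 to 3713 CPM in FH and 1463 to 9236 CPM in SFH. The list of 13 other miRNAs abundant in red cells, however, summed to 64215 to 95774 CPM in FH and 64276 to 91659 CPM in SFH. The sums of the lists therefore do not measure white cells against red cells. Of the 5 lymphocyte miRNAs, 5 had a slope on bta-miR-451 above 0, beside 152 of all 339 (44.8%). An unadjusted p of 0.05 in edgeR was passed by 0 of the 5, beside 32 of 339 (9.44%). The slope was 0.25 (standard error 0.12) for bta-miR-150, which is high in mature B and T cells. Without SFH heifer 30, the slope was above 0 in 3 of the 5 lymphocyte and 5 of the 8 myeloid miRNAs, beside the same 158 of 339. In the myeloid list 4 of 8 slopes were above 0, and 2 had an unadjusted p of at most 0.05. These were the 0.36 of bta-miR-142-5p and the −0.24 of bta-miR-24-3p (standard error 0.11, unadjusted p = 0.0463), and the latter was −0.09 without heifer 30 (standard error 0.15). As bta-miR-142-5p is made throughout the blood cell lineages, its slope does not single out myeloid cells. bta-miR-223, the granulocyte and monocyte miRNA, had a slope of 0.16 (standard error 0.11).

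Among 5 platelet and endothelial miRNAs, 3 slopes were above 0, beside 152 of all 339 (44.8%). An unadjusted p of 0.05 in edgeR was passed by 0 of the 5, beside 32 of 339 (9.44%). The slopes were 0.88 for bta-miR-126-5p (standard error 0.73), 0.82 for bta-miR-199a-3p (0.61), 0.17 for bta-miR-126-3p (0.36), −0.19 for bta-miR-221 (0.10) and −0.22 for bta-miR-222 (0.11). Without SFH heifer 30, 3 of the 5 were above 0, with a median slope of 0.39 beside −0.03 over all 339. bta-miR-126-3p, the endothelial miRNA that platelets also carry, had 14 to 245 counts per heifer, and bta-miR-126-5p had no count in 3 heifers. The sum of this list in heifer 30, 9299 CPM, was the lowest of the 14. It consisted mostly of bta-miR-221 (7171 CPM, the lowest of the 14) and bta-miR-222 (2034 CPM, 13th). Heifer 30 stood 2nd for bta-miR-199a-3p, 4th for bta-miR-126-5p and 10th for bta-miR-126-3p, so the low sum does not hold for each miRNA. The sum of the lymphocyte list in that heifer, 144193 CPM, was the highest. Of 4 miRNAs of liver and muscle that can enter from plasma, only bta-miR-1 could be tested, with a slope of −1.12 (standard error 1.95), and the 4 had no count in 2 to 12 heifers each. The part of these other cells in the level of bta-miR-451 was not tested. None of the tested miRNAs of the 5 lists passed the study's thresholds between SFH and FH in edgeR, where bta-miR-24-3p had a log2 fold change of 0.40 (unadjusted p = 0.0456).

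**Figure D5:**
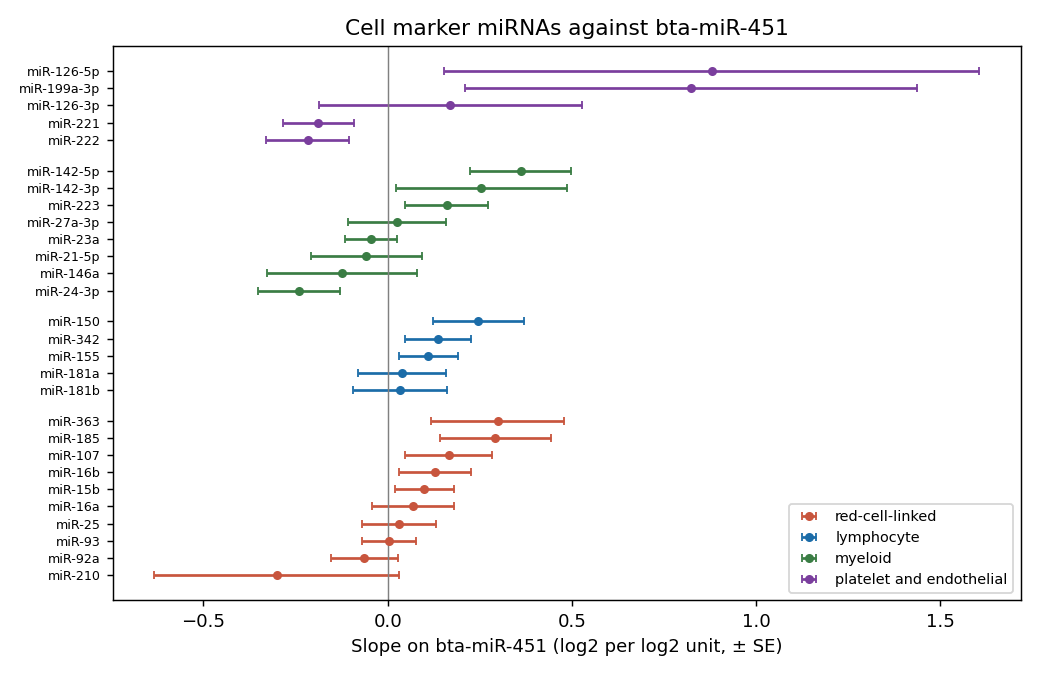
Slopes on bta-miR-451 of the tested miRNAs of 4 marker lists, in log2 per log2 unit with standard errors (bta-miR-1 is left out for its wide error). The 10 red-cell-linked miRNAs lie between −0.30 and 0.30, and the lymphocyte and myeloid miRNAs between −0.24 and 0.36.

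Whether the level of bta-miR-451 bears on the comparison of the groups was examined by adding it as a covariate. The number of miRNAs past the study's thresholds was then 16, compared to 13 without it, and 11 were shared. Of the 13, 3 had a slope on bta-miR-451 with an unadjusted p of at most 0.05 in edgeR, beside 32 of all 339 (9.44%). These were bta-miR-2478, bta-miR-140 and bta-miR-2332. The log2 fold change of bta-miR-2332 was 1.24 (standard error 0.48) without the covariate and 1.33 (standard error 0.47) with it. For bta-miR-2478 the log2 fold change was −0.78 (standard error 0.20) without and −0.67 (standard error 0.14) including the covariate. bta-miR-140 had 0.57 (standard error 0.25) without and 0.32 (standard error 0.21, unadjusted p = 0.158) with the covariate, and no longer passed. bta-miR-1949, which was not among the 13, moved from 0.57 (unadjusted p = 0.208) to 0.67 (unadjusted p = 0.0484) and passed with the covariate. Without SFH heifer 30, and without the covariate, 13 miRNAs passed, of which 11 were shared with the 13 of all heifers. In these 3 edgeR fits no miRNA (0 of 341) reached an adjusted 0.05.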

How the data were processed

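PWBC small RNA of 14 heifers (7 FH, 7 SFH) was analysed. The authors trimmed the reads with cutadapt, aligned them with miRDeep2 to ARS-UCD1.2 and miRBase, and deposited raw counts for each mature miRNA and precursor. How red cells were removed is not given in the sources used here. The authors also deposited CPM (made with edgeR 3.28.1, per the labels), which equal the counts over the total of the 341 retained miRNAs of each heifer. The entry with the highest total was kept for each name. Tested were the miRNAs reaching 1 CPM in 7 or more heifers.

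After TMM normalization, the quasi-likelihood test of edgeR 4.0.16 (R 4.3.3) was applied to the counts, with Benjamini-Hochberg adjustment over all tested miRNAs. DESeq2 1.42.0 served as an alternative. The standard error was taken from the fold change and F statistic. Correlations used log2(TMM-normalized CPM + 0.5), 100000 resamples over 14 heifers and all 5040 pairings over 7, and group tests all 3432 arrangements (Python 3.11.15, scipy 1.17.1). As a check, counts were simulated in which 200 miRNAs had a log2 change of 1. Of these, 43.5% were found by the group test of 341 miRNAs and 54% by the slope test of 339. In the heifers 0 of 341 and 0 of 339 passed after adjustment in edgeR, and most slopes named here were below 1 in size. The shares found with 200 changed miRNAs may therefore overstate what these tests could find in the heifers.

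The text names the members, the miRNAs of the marker lists, the 5 highest and 3 lowest by r for each member and the 5 smallest p-values per direction of the slope fit. Members and lists were chosen with earlier results of these data known. The heifers are separate animals, and no libraries had identical counts. Mature miRNA sequences were not used here.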

Additional observations from a re-analysis of the deposited data

Results flagged for a closer look

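A single heifer far from the others of its group was looked for in 42 groups of 7 values, and 7 were found. Chance gives about 1 in 20 for independent, normally distributed values, which these are not, since 3 of the 7 hold the same bta-miR-451 reads. Of the erythroid values, 3 came from SFH heifer 30. These were bta-miR-451 at 7068 CPM (other SFH heifers 949 to 2818 CPM), 273.5 reads of bta-miR-451 for every 1000 of bta-miR-23a (others 30.1 to 96.0), and a share of bta-miR-451 and bta-miR-486 of 0.924% (others 0.146% to 0.419%). bta-miR-486 itself was highest in the same heifer, at 2169 CPM, without standing apart in this sense.

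Among the miRNAs with the smallest p-values on bta-miR-451, FH heifer 22 had 8515 CPM of bta-miR-30b-5p (other FH heifers 2002 to 4672 CPM) and FH heifer 25 had 19112 CPM of bta-miR-423-5p (others 2823 to 8412 CPM). These are also the heifers with the highest and the lowest ratio of bta-miR-451 to bta-miR-486. The sum of the liver and muscle miRNAs was 276 CPM in SFH heifer 21 (others 0.650 to 22.0 CPM) and 85.6 CPM in FH heifer 20 (others 0 to 12.04 CPM).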

How the results depend on the processing

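No paired analysis was possible because the heifers carry different numbers in FH and SFH. For bta-miR-144 no alternative gave a value, since its counts were 0, and the slope on bta-miR-144 was not run for that reason. bta-miR-451 stayed higher in SFH in all 22 alternatives to the main edgeR fit, DESeq2 included. It passed the thresholds in 4 of them: without a filter on low counts (log2 fold change 0.73, unadjusted p = 0.0232 in edgeR, adjusted 0.142), and without SFH heifer 21, 23 or 26. Leaving out 1 heifer gave 0.13 to 0.86 in edgeR and 0.07 to 0.56 in the permutation test. bta-miR-486 changed sign with library totals only (0.0035), with the log2 total count as a covariate (0.085), and in the permutation test with the deposited CPM (0.042) or totals without the members (0.043). Leaving out 1 heifer gave −0.33 to 0.17 in edgeR and −0.23 to 0.15 in the permutation test. It passed the thresholds in none of these fits. The number of miRNAs past the thresholds was 126 of 614 without a filter and 11 to 22 with 1 heifer left out (22 without FH heifer 24, 20 without SFH heifer 26), against 13; the cause was not tested. The number with an adjusted slope on bta-miR-451 was 11 in DESeq2 and 0 in the other 22 alternatives. The latter include the slope on bta-miR-486 and the test of separate slopes, which ask other questions. The r of bta-miR-451 and bta-miR-486 was 0.49 over all heifers, −0.035 within FH and 0.85 within SFH, and 0.24 without SFH heifer 30, an alternative chosen after seeing the data, as was the test of separate slopes. The number of correlated pairs after adjustment stayed at 0 in all 7 alternatives.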
